A study of Homo sapiens with 6 samples.

Results

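The numbered RBM genes (RBM followed by a number, with or without a letter) encode RNA-binding motif proteins, and they were picked out of the gene count table by symbol alone, leaving out any on chromosome Y. The table held 38 of them among 56303 genes. 37 had enough counts to be tested, beside 21005 tested genes in all. RBM46, a germ line gene, had 0 counts in all 6 libraries, so its level is known only to lie under the floor of 3 counts, 0.0676 to 0.0729 CPM (counts scaled to library size), a limit that covers counting error only.

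SW480, a line from a human colorectal adenocarcinoma, had been infected with lentivirus carrying either a non-silencing hairpin (shCtrl, genotype WT in the labels) or a hairpin against MORC2 (shMORC2, genotype MORC2 knockdown), a nuclear ATPase of the microrchidia family. Each group had 3 libraries. The methods describe stable clonal lines kept by puromycin selection and 3 replicate experiments a group, so the effect of the hairpin and that of the selected line cannot be told apart, and p-values measure only the spread between these libraries. The study followed RBM39, and the comparison here asks how RBM39 and its numbered relatives stood after MORC2 knockdown and which of them had an entry in the deposited splicing table.

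RBM proteins share the RNA recognition motif, a small fold that holds single-stranded RNA, and otherwise have little in common. RBM39 and its close relative RBM23 resemble U2AF2, the protein that recognises the pyrimidine tract before a 3′ splice site. Others sit in the spliceosome, in the complex that methylates adenosines in mRNA, in the exon junction complex, in nuclear RNA decay or in ribosome assembly.

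The libraries held 42092664 to 43434425 counts, of which mitochondrial genes took 7.04% to 8.90%, and 0.312% to 0.364% lay in the RBM genes. MORC2 itself stood at 46.1, 46.4 and 48.8 CPM in shCtrl and at 35.03, 29.3 and 27.2 CPM in shMORC2. It fell to 64.7% of control (log2 fold change -0.63, SE 0.10, edgeR quasi-likelihood adjusted p 0.000216), so the knockdown was partial. The colon epithelial markers were present, with EPCAM at 478 and 515 CPM in shCtrl and shMORC2 and KRT8 at 15380 and 15071 CPM, and 2 of the 7 rose (CDX2 and KRT20). The groups overlapped for CDX2, which was called in 8 of 13 alternatives and lost its call without shCtrl replicate 2 (edgeR adjusted p 0.0648), shCtrl replicate 3 (0.0576) or shMORC2 replicate 3 (0.0968). Of 7 markers of other cell types, PTPRC, CD3E, COL1A2 and DCN had at most 10 counts in a library, and PECAM1 and COL1A1, at 15.03 and 9.31 CPM in shCtrl, were not called. CD68, a lysosomal protein typical of macrophages, rose from 34.1 to 82.4 CPM (log2 fold change 1.27, edgeR adjusted p 0.0003), and its part in the results was not tested. In bulk RNA, fewer cells with a transcript and less transcript per cell cannot be told apart.

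3 exons carry what the splicing table holds for RBM23 and RBM47, the family members with a well-read event. They are given here from the GRCh38 genome, 5′ to 3′ on the strand of the gene, with the exon in capitals, the last 30 bases of the intron before it and the first 20 of the intron after it in lower case. The RBM23 exon (chr14:22908333-22908380, minus strand) is 48 bases long, keeps the reading frame, and is exon 4 of 14 in the canonical transcript. It occurs in 10 of 33 annotated transcripts and is wholly coding in 4 of them. The RBM47 exons are 207 bases (chr4:40436441-40436647, minus strand, exon 5 of 7, in frame) and 212 bases (chr4:40432651-40432862, minus strand, exon 6 of 7, not a multiple of 3).
RBM23 exon 4: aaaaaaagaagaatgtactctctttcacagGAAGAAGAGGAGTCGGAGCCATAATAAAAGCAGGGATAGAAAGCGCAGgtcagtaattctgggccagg
RBM47 exon 5: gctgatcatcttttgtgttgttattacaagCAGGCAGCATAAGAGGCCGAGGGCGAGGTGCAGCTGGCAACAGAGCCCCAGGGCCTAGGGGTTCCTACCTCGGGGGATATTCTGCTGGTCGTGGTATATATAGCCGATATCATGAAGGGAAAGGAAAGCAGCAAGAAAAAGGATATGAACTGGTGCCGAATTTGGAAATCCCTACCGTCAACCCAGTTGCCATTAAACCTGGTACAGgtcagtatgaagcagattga
RBM47 exon 6: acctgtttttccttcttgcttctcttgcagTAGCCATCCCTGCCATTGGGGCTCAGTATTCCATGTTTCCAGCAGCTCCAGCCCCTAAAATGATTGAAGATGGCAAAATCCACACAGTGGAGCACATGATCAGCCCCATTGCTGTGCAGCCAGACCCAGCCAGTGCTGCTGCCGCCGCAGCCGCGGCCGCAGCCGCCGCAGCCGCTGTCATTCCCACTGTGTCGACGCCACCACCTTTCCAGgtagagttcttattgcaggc
Before the AG that ends the upstream intron, 12 of 20 bases were pyrimidines at the RBM23 exon, 14 of 20 at RBM47 exon 5 and 18 of 20 at RBM47 exon 6. All 3 exons were flanked by AG and GT.

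The family as a whole did not move one way. An adjusted p under 0.05 in the edgeR fit is a call below. 16 of the 37 tested RBM genes were called (43.2%) where 39.5% of all tested genes were, 7 of them higher in shMORC2 (all genes, 19.9%) and 9 lower (all genes, 19.6%). The 3 shMORC2 libraries lay wholly above or below the 3 shCtrl libraries for 21 RBM genes (all genes, 50.2%), above for 8 (25.1%) and below for 13 (25.1%). The median log2 fold change was 0.0023 over the RBM genes and -0.0056 over all genes. These shares lie near the background, so the family count is not a result about the family, and what follows is about its members. Of the 37 tested RBM genes, 4 were called with a log2 fold change of at least 0.5 in size, where 22.4% of all tested genes were. These were RBM8B and RBM23 upward and RBM15 and RBM41 downward.

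**Figure D1:**
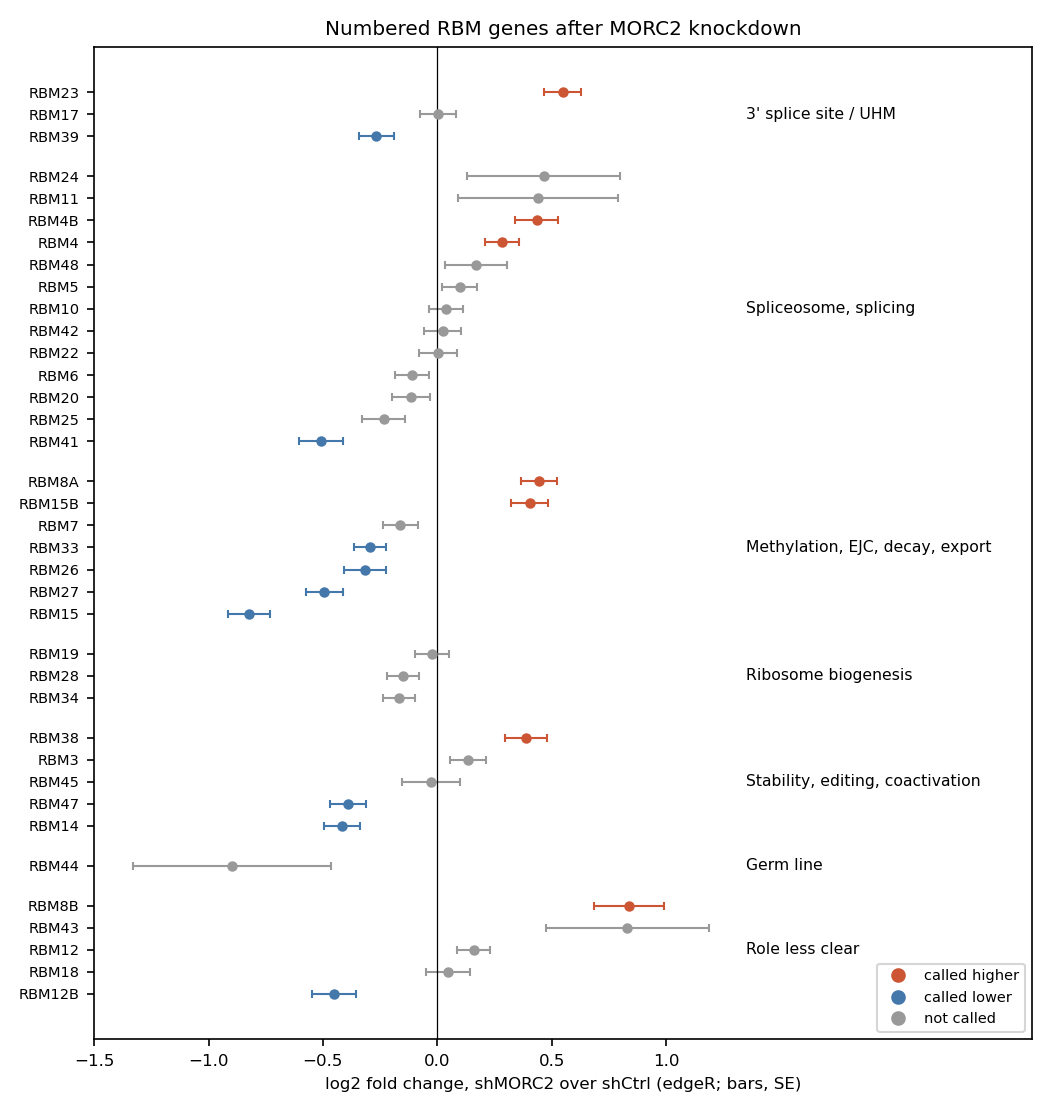
Fitted log2 fold changes of shMORC2 over shCtrl for the 37 tested RBM genes, grouped by role, with bars of 1 SE. Calls in both directions run from -0.82 for RBM15 to 0.84 for RBM8B, and RBM17, RBM22, RBM42 and RBM19 sit near 0.

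Among the proteins of 3′ splice site recognition, RBM39 fell and RBM23 rose. RBM39 (chr20:35703609-35742312, minus strand), a splicing factor and transcriptional coactivator, stood at 373, 380.2 and 376 CPM in shCtrl and at 339.8, 308 and 291 CPM in shMORC2. All shMORC2 libraries lay under all shCtrl libraries. It fell from 376 ± 3.70 to 313 ± 25.03 CPM (SD, n = 3 each), 83.1% of control (log2 fold change -0.27, SE 0.08, edgeR adjusted p 0.0143). The call was lost without shCtrl replicate 3 (-0.26, edgeR adjusted p 0.0521), without shMORC2 replicate 2 (-0.25, 0.0647) and without shMORC2 replicate 3 (-0.21, 0.0850). None of the exonic bases of RBM39 are shared with another annotated gene.

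RBM23 (chr14:22893206-22919184, minus strand), the nearest relative of RBM39, stood at 60.6, 53.2 and 57.4 CPM in shCtrl and at 86.5, 77.6 and 86.2 CPM in shMORC2. Every shMORC2 library lay above every shCtrl library. The rise, from a mean of 57.05 ± 3.74 to 83.4 ± 5.08 CPM (SD, n = 3 each), was called (log2 fold change 0.55, SE 0.08, edgeR adjusted p 0.000170). RBM17, also known as SPF45, whose UHM domain binds other splice site factors, stood at 169, 152 and 151 CPM in shCtrl and 167, 152 and 154 CPM in shMORC2. It was not called (log2 fold change 0.0030, SE 0.08, edgeR adjusted p 0.980).

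**Figure D2:**
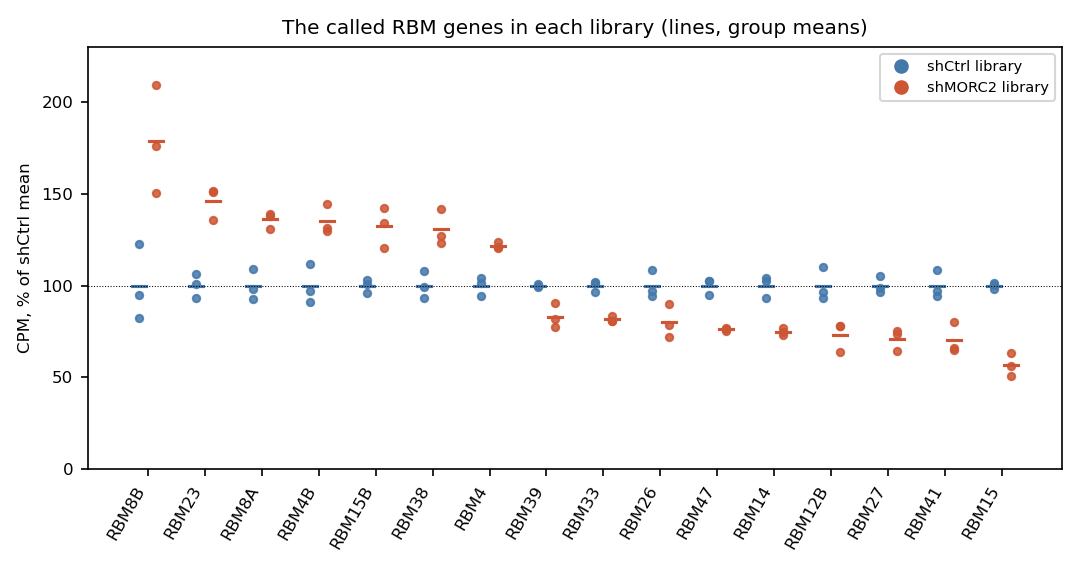
CPM of the 16 called RBM genes in each of the 6 libraries, as a percentage of the gene's shCtrl mean, with short lines at the group means. The shMORC2 means run from 179% for RBM8B to 56.5% for RBM15, RBM39 lies at 83.1%, and in each gene the 3 shMORC2 libraries lie on one side of the 3 shCtrl libraries.

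The opposite moves of RBM39 and RBM23 can be read within each library, where library size cancels. The log2 ratio of RBM39 to RBM23 counts was 2.62, 2.84 and 2.71 in shCtrl and 1.97, 1.99 and 1.75 in shMORC2. The ratio was lower by 0.82 on the log2 scale, or 1.76-fold, with no overlap (exact two-sided permutation test, p 0.1, the smallest that 3 against 3 libraries can give, and 0.16 after adjustment over the 8 related pairs compared). The 8 pairs were set after values were seen and p could not go under 0.1, so this test cannot decide for any pair. Since count ratios between genes hold their lengths too, only the change in a ratio is comparable.

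Of 8 partners in 3′ splice site recognition, 3 were called (37.5%, all genes 39.5%), a share near the background. SF3B1, the U2 snRNP subunit that contacts the branch site, fell from 456 to 347 CPM (log2 fold change -0.40, edgeR adjusted p 0.00123). ZRSR2, which recognises the 3′ splice site of minor introns, fell by 0.27 on the log2 scale (edgeR adjusted p 0.0168), and PUF60, a UHM protein related to RBM39, rose by 0.32 (0.00470). ZRSR2 lost its call without shCtrl replicate 2 (edgeR adjusted p 0.0795) and without shMORC2 replicate 3 (0.0781).

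Of 7 genes linked to RBM39 degradation, TRIM25 and 6 subunits of the cullin ligase that takes RBM39 in cells given aryl sulfonamide drugs (not given here), 3 were called, all of them ligase subunits. CUL4A, a cullin scaffold, fell by 0.24 on the log2 scale (edgeR adjusted p 0.0204), and RBX1, the RING subunit, fell by 0.39 (0.0102). DDA1, another subunit, rose by 0.25 (edgeR adjusted p 0.0425) with overlapping groups. CUL4A lost its call without shCtrl replicate 1 (edgeR adjusted p 0.0554), shCtrl replicate 3 (0.0846), shMORC2 replicate 2 (0.0881) or shMORC2 replicate 3 (0.0892). DDA1 lost it without shCtrl replicate 1 (edgeR adjusted p 0.151), shCtrl replicate 2 (0.0725), shMORC2 replicate 2 (0.153) or shMORC2 replicate 3 (0.148), and RBX1 without shCtrl replicate 3 (0.0597).

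Genes for RNA methylation, the exon junction, nuclear decay and export had 6 of 7 members called (all genes, 39.5%). In all 7 the groups did not overlap (all genes, 50.2%). Of the 6 called, 2 rose and 4 fell. The list was drawn up by role with earlier results of these data known, so these counts describe the 7 genes only. Their median log2 fold change was -0.29.

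RBM15 (chr1:110338506-110346681, plus strand), which brings the methyltransferase complex to mRNA, had the largest fall among the called genes. Its level was 31.4, 30.7 and 31.7 CPM in shCtrl and 19.7, 17.5 and 15.8 CPM in shMORC2. RBM15 thus went from 31.3 ± 0.505 to 17.7 ± 1.94 CPM (SD, n = 3 each), 56.5% of control (log2 fold change -0.82, SE 0.09, edgeR adjusted p 2.19e-05). RBM15B (chr3:51391268-51397908, plus strand), its paralogue with a like role in the complex, moved the other way, from 80.3, 78.9 and 75.1 CPM to 105, 94.1 and 111 CPM. RBM15B rose from 78.1 ± 2.70 to 103 ± 8.68 CPM (log2 fold change 0.40, SE 0.08, edgeR adjusted p 0.00151). 1325 of its 6641 exonic bases are shared with DCAF1 on the opposite strand.

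The log2 ratio of RBM15 to RBM15B counts was -1.35, -1.36 and -1.25 in shCtrl and -2.41, -2.43 and -2.81 in shMORC2. That is a difference of -1.23, or 2.35-fold, the largest of the 8 pairs (exact two-sided permutation test, p 0.1, the smallest possible, adjusted 0.16). Of 6 other members of the methyltransferase complex, 1 was called (all genes, 39.5%). METTL3, the catalytic subunit, fell from 32.4 to 25.3 CPM (log2 fold change -0.36, edgeR adjusted p 0.00330), and the others were not called.

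RBM8A (chr1:145917714-145927678, minus strand), the Y14 subunit of the exon junction complex, rose. It stood at 168, 143 and 152 CPM in shCtrl and at 215, 202 and 213 CPM in shMORC2, means of 154 ± 12.97 and 210.01 ± 7.01 CPM (log2 fold change 0.44, SE 0.08, edgeR adjusted p 0.000701). RBM8B (chr14:60397757-60398281, plus strand) is a copy of RBM8A, 525 bases in a single block, to which reads of RBM8A could be assigned, so its level is uncertain. It was read at 10.3, 6.88 and 7.93 CPM in shCtrl and 17.5, 12.6 and 14.7 CPM in shMORC2 (log2 fold change 0.84, SE 0.15, edgeR adjusted p 0.000841).

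Both genes for the partner of Y14 rose too. MAGOH went from 36.4 to 49.4 CPM (log2 fold change 0.44, edgeR adjusted p 0.00297) and MAGOHB from 34.3 to 51.1 CPM (0.58, 0.00194). The other 2 of the 4 exon junction genes examined were not called (all genes, 39.5% called).

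In nuclear RNA decay and export, RBM26, RBM27 and RBM33 fell. RBM27 (chr5:146203600-146289132, plus strand), which works with the nuclear exosome, stood at 110.2, 101 and 103 CPM in shCtrl and at 79.1, 77.01 and 67.2 CPM in shMORC2 (log2 fold change -0.49, SE 0.08, edgeR adjusted p 0.000411). 45.4% of its exonic bases are shared with another annotated gene on the same strand. RBM26, its paralogue, fell less, from 137, 119 and 123 CPM to 114, 99.6 and 91.2 CPM (log2 fold change -0.32, SE 0.09, edgeR adjusted p 0.0148). Its call was lost without shMORC2 replicate 2 (edgeR adjusted p 0.0663) and without shMORC2 replicate 3 (0.0914).

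RBM33 (chr7:155644451-155781485, plus strand), an RNA export and demethylation cofactor, stood at 187, 197 and 196 CPM in shCtrl and at 156, 161 and 156 CPM in shMORC2 (log2 fold change -0.29, SE 0.07, edgeR adjusted p 0.00453). RBM7, the RNA-binding subunit of the nuclear exosome targeting complex, was not called, with means of 33.4 and 29.9 CPM in shCtrl and shMORC2 (log2 fold change -0.16, edgeR adjusted p 0.109). Of 5 other genes of nuclear exosome targeting, 3 were called lower (all genes, 19.6%). The list was chosen with earlier results of these data known, so this count describes the 5 genes only. ZFC3H1, a scaffold of the poly(A) tail exosome targeting connection, fell by 0.50 on the log2 scale (edgeR adjusted p 0.000514), PABPN1, the nuclear poly(A) binding protein, fell by 0.56 (8.79e-05), and the helicase SKIV2L2 fell by 0.27 (0.0206). SKIV2L2 lost its call without shCtrl replicate 1 (edgeR adjusted p 0.0764), shMORC2 replicate 2 (0.0961) or shMORC2 replicate 3 (0.0972), and in both limma fits (limma adjusted p 0.0531 and 0.0542).

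Of 13 spliceosome components and splicing regulators, 3 were called (all genes, 39.5%), and their median log2 fold change was 0.04. RBM4 and RBM4B, adjacent paralogues on chromosome 11 that regulate exon choice, both rose. RBM4B stood at 27.5, 22.3 and 23.8 CPM in shCtrl and 35.4, 32.2 and 31.8 CPM in shMORC2 (log2 fold change 0.43, SE 0.09, edgeR adjusted p 0.00262), and RBM4 at 89.2, 96.3 and 98.9 CPM and 115, 114 and 117 CPM (0.28, SE 0.07, 0.00750). Of the exonic bases of RBM4, 48.4% are shared with other genes, among them RBM4B and a read-through transcript of RBM14 and RBM4, so its counts are uncertain. RBM41 (chrX:107064420-107118823, minus strand), a protein of the minor spliceosome, fell from 43.8, 39.3 and 38.2 CPM to 32.3, 26.6 and 26.2 CPM (log2 fold change -0.51, SE 0.10, edgeR adjusted p 0.00113).

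RBM25, a U1-associated regulator with the most reads of any member, at 559, 491 and 489 CPM in shCtrl and 493, 414 and 399 CPM in shMORC2, was not called (log2 fold change -0.24, edgeR adjusted p 0.0586). The groups overlapped, and the fit blocked on replicate number gave an edgeR adjusted p of 0.000513. RBM5, RBM6 and RBM10, a related trio of exon-skipping regulators, had log2 fold changes of 0.10, -0.11 and 0.04 and none was called. For the core component RBM22 and for RBM42 the values were 0.0023 and 0.02, for the muscle regulators RBM20 and RBM24 they were -0.12 and 0.47, and for RBM11 and the minor spliceosome protein RBM48 they were 0.44 and 0.17. RBM11 and RBM24 had SEs of 0.35 and 0.33, at mean levels under 1 CPM, so changes of that size were not detectable at this depth.

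Of the 3 ribosome biogenesis genes none was called in the edgeR fit (all genes, 39.5%). RBM34 had a log2 fold change of -0.17 (edgeR adjusted p 0.0668, and 0.0151 with the replicate block), RBM28 of -0.15 (0.103, and 0.0332 with the block) and RBM19 of -0.02 (0.818). 51.5% of the exonic bases of RBM34 are shared with ARID4B on the same strand.

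Among genes for mRNA stability, editing and coactivation, 3 of 5 were called (all genes, 39.5%). RBM47 (chr4:40423267-40630875, minus strand), an epithelial RNA-binding protein that serves as a cofactor of C-to-U editing, fell from 29.1, 31.4 and 31.4 CPM to 23.4, 23.04 and 23.6 CPM (log2 fold change -0.39, SE 0.08, edgeR adjusted p 0.00168). RBM14, a coactivator found in paraspeckles, fell from 38.9, 34.8 and 38.1 CPM to 27.9, 27.1 and 28.7 CPM (log2 fold change -0.42, SE 0.08, edgeR adjusted p 0.00116). RBM38, a p53 target that binds AU-rich mRNA, rose from 16.9, 17.99 and 19.5 CPM to 22.4, 23.1 and 25.7 CPM (log2 fold change 0.39, SE 0.09, edgeR adjusted p 0.00516). The groups did not overlap in these 3 of the 5 genes (all genes, 50.2%). The cold-shock protein RBM3 and RBM45 were not called (log2 fold changes 0.13 and -0.03).

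A1CF, the other editing cofactor, rose from a mean of 1.45 to 2.18 CPM (log2 fold change 0.60, edgeR adjusted p 0.0365), a call that held in 5 of 11 alternatives and, with a library left out, only without shMORC2 replicate 2. APOBEC1, the editing enzyme, had at most 4 counts in a library.

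The remaining genes have less clear roles or belong to the germ line. Of 5 with a less clear role, RBM8B rose as given above, RBM12B fell and 3 were not called (all genes, 39.5% called). RBM12B fell from 48.4, 41.1 and 42.5 CPM to 34.2, 34.3 and 28.1 CPM (log2 fold change -0.45, SE 0.10, edgeR adjusted p 0.00264), and 38.8% of its exonic bases are shared with genes on the opposite strand. Its paralogue RBM12 had a log2 fold change of 0.16 (edgeR adjusted p 0.104, and 0.0255 with the replicate block). The log2 ratio of RBM12 to RBM12B counts had a mean of 1.32 in shCtrl and 1.93 in shMORC2 with no overlap, a difference of 0.61 (exact two-sided permutation test, p 0.1, the smallest possible, adjusted 0.16). RBM18 had a log2 fold change of 0.05. RBM43 held 36, 14 and 20 counts in shCtrl and 52, 30 and 44 in shMORC2 (log2 fold change 0.83, SE 0.36, edgeR adjusted p 0.0798, and 0.0289 with the block). RBM44, a germ line gene, held 26, 18 and 12 counts and 7, 11 and 12 counts (log2 fold change -0.90, SE 0.43, edgeR adjusted p 0.117).

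**Figure D3:**
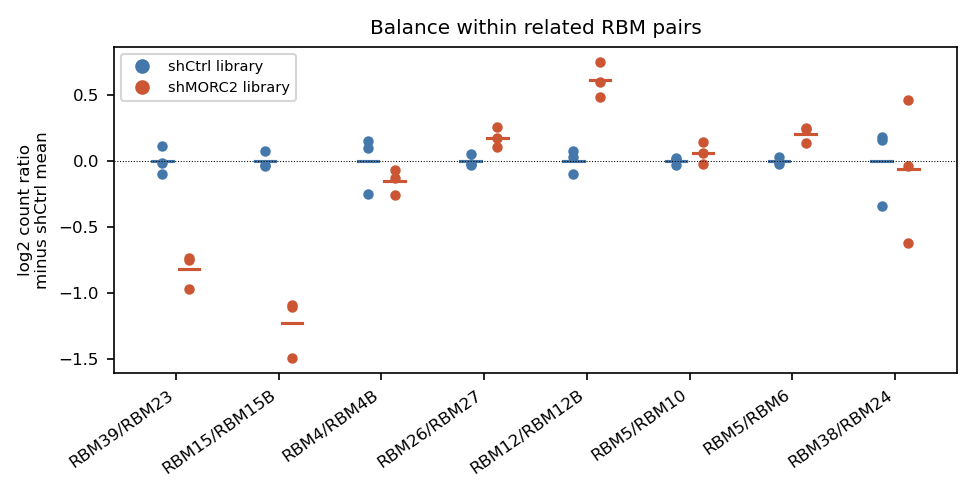
Log2 ratio of read counts between the members of 8 related pairs in each library, minus the pair's shCtrl mean, with short lines at the group means. RBM39/RBM23 and RBM15/RBM15B lie 0.82 and 1.23 lower in shMORC2, RBM12/RBM12B lies 0.61 higher, and RBM4/RBM4B, RBM5/RBM10 and RBM38/RBM24 overlap.

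Of the other pairs, RBM5/RBM6 and RBM26/RBM27 also did not overlap, with ratios higher by 0.21 and 0.18 on the log2 scale in shMORC2 (exact two-sided permutation test, p 0.1 for each, adjusted 0.16). RBM5 and RBM6 share 456 exonic bases on the same strand, and 21.2% of the exonic bases of RBM5 are shared with other genes. Their ratio is therefore uncertain. RBM4/RBM4B differed by -0.15, RBM5/RBM10 by 0.06 and RBM38/RBM24 by -0.06, with overlap. Neighbours in the genome could differ in their calls. RBM12 and RBM39 lie 38652 bases apart on chromosome 20, and RBM39 fell while RBM12 was not called. RBM14 and RBM4 lie 11269 bases apart on chromosome 11, and RBM14 fell while RBM4 rose.

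Levels between genes can be compared only per length, so the deposited RPKM (reads corrected for exon length and sequencing depth) was used for the order of levels. In shCtrl, RBM34 stood first at 45.99 ± 1.31 RPKM, followed by RBM25 (43.4 ± 4.33), RBM10 (42.3 ± 2.25) and RBM39 (40.1 ± 0.918) (SD, n = 3 each). 18 members had a mean of at least 10 RPKM, 15 lay between 1 and 10, and 5 lay under 1 (RBM24, RBM11, RBM43, RBM44 and RBM46). Of the 37 pairs of neighbours in this order, 25 overlapped in their libraries, so most adjacent ranks do not differ beyond their spread. In shMORC2, RBM39 went from rank 4 to rank 5 at 33.1 ± 3.33 RPKM, RBM8A from rank 7 to rank 3 and RBM15 from rank 24 to rank 29. RBM23 was 4.08 ± 0.320 RPKM in shCtrl and 5.93 ± 0.455 RPKM in shMORC2, far under RBM39 in both.

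**Figure D4:**
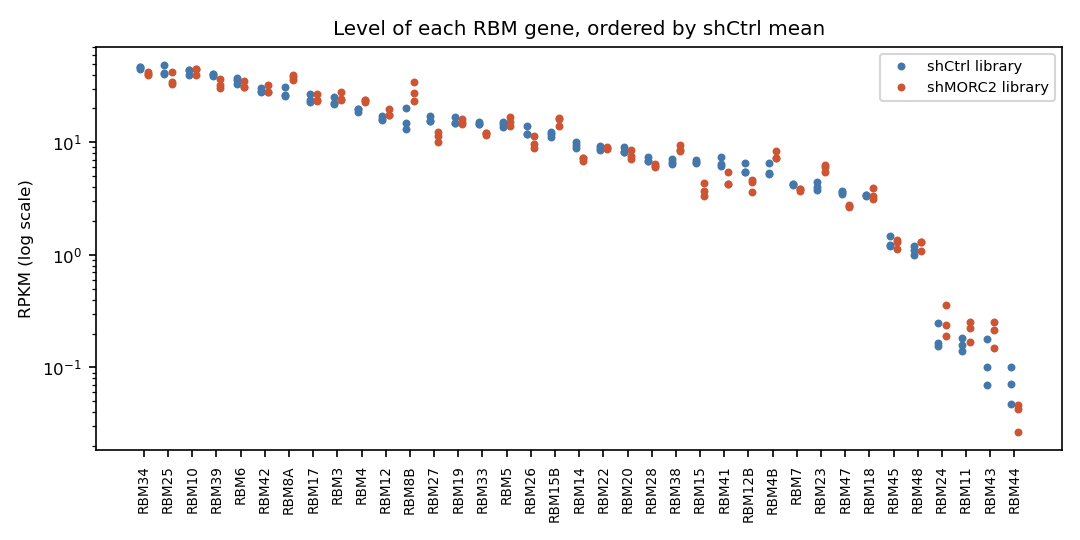
RPKM of the RBM genes in each of the 6 libraries, on a log axis, ordered by the shCtrl mean, with shCtrl and shMORC2 libraries as points. The order runs from RBM34 at 45.99 RPKM to RBM44 at 0.0728 RPKM in shCtrl, and RBM46, which has no reads, is not drawn.

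The deposited splicing table lists 1449 events in 1181 genes that passed the authors' own comparison of 3 libraries with 3 libraries. Its groups are called 1 and 2 and are not named, so no knockdown direction is given here, and since that comparison chose the events no test was made. 3 RBM genes had an event, RBM23, RBM33 and RBM47, and 35 had none, RBM39 among them. The 1181 genes amount to 5.62% of the number of genes tested for expression. An inclusion level is the share of transcripts that hold the exon, estimated from reads on the exon and its junctions after correction for length.

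RBM23 exon 4, the 48-base exon printed above, was included at 0.569, 0.526 and 0.579 in group 1 and at 0.499, 0.395 and 0.473 in group 2. The means were 0.558 and 0.456, a difference of 0.102, and the groups did not overlap. It was read by 410, 388 and 398 reads in group 1 and 201, 163 and 232 in group 2.

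RBM47 had a mutually exclusive pair, exon 5 (207 bases) against exon 6 (212 bases). The form with exon 5, recognised as the inclusion form from the length correction, was read at levels of 0.557, 0.453 and 0.455 in group 1 and 0.378, 0.426 and 0.285 in group 2. The difference of the means was 0.125, without overlap, on 62 to 110 reads a library. The canonical transcript holds both exons, so reads of one transcript can count toward both forms, and the level is then not a choice between them.

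RBM33 had a skipped exon of 49 bases (chr7:155672867-155672915, plus strand, exon 3 of 18), which does not keep the frame. It rested on 1 to 5 reads a library, with levels of 0.744, 1.0 and 1.0 in group 1 and 0.685, 0.266 and 0.744 in group 2, and the groups overlapped. The difference of 0.350 went to 0.2002 without the second library of group 2. At this depth the RBM33 event was not resolved.

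**Figure D5:**
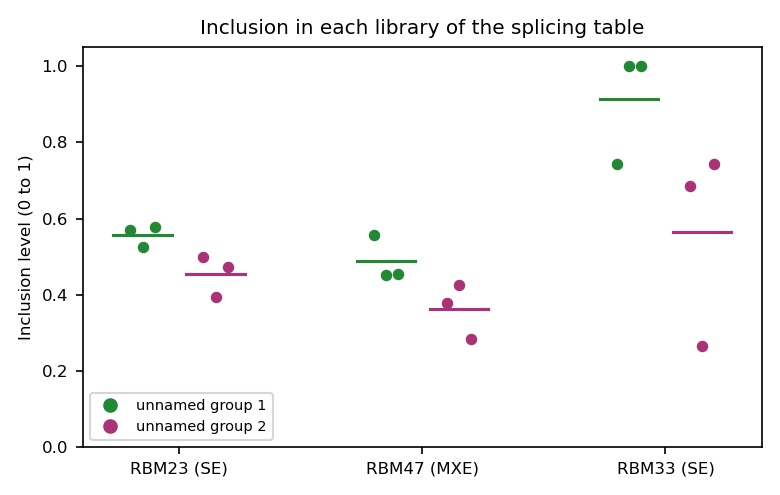
Inclusion level in each library of unnamed groups 1 and 2 for the events in RBM23, RBM47 and RBM33 (SE, skipped exon, and MXE, mutually exclusive exons), with lines at the group means. The RBM23 levels lie at 0.526 to 0.579 against 0.395 to 0.499, the RBM47 levels at 0.453 to 0.557 against 0.285 to 0.426, and the RBM33 groups overlap on 1 to 5 reads.

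Among the 39 partner genes, 16 of 37 tested were called (43.2%, all genes 39.5%), 7 higher (all genes, 19.9%) and 9 lower (19.6%), with a median log2 fold change of -0.02. This share lies near the background and is not a result about the partners. Of the RBM-named genes outside the numbered family, RBMX2 rose by 0.28 on the log2 scale (edgeR adjusted p 0.0116), RBMS1 rose by 0.29 (0.0123) and RBMXL1 fell by 0.31 (0.0122). Calls were lost for RBMX2 without shMORC2 replicate 2 (edgeR adjusted p 0.0683), for RBMS1 without shCtrl replicate 2 (0.0591) or shMORC2 replicate 2 (0.0663), and for RBMXL1 without shMORC2 replicate 3 (0.0615). 5 partner genes had 6 events in the splicing table. The pair with the deepest reads was in DDB1, with a mean level of 0.602 in group 1 and 0.484 in group 2 on at least 1038 reads a library. PUF60 stood at 0.303 and 0.199 on at least 127 reads, and its groups overlapped (0.218 to 0.369 and 0.159 to 0.22). RBX1 had 2 skipped exons at 1.0 in every library of group 2, with means of 0.897 and 0.813 in group 1 on at least 39 and 16 reads, and neither overlapped. METTL14 (0.808 and 0.954) and SF1 (0.488 and 0.756, on as few as 3 reads) overlapped.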

How the data were processed

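Polyadenylated RNA of SW480 cells (3 shCtrl and 3 shMORC2 libraries, grouped by their titles) was sequenced from a stranded kit with molecular identifiers. The deposited table holds raw read counts per gene as featureCounts writes them. The submitters' processing notes name Trimmomatic 0.36, STAR 2.5.3a, featureCounts, Subread 1.5.1, edgeR 3.12.1 and GRCh38, without role or order. The strand setting, the annotation release, how reads in shared exons were assigned and whether identifiers were collapsed are not given in the sources used here. The authors computed the deposited RPKM from the same libraries. The deposited rMATS table gives counts of inclusion and skipping reads and inclusion levels (a fraction from 0 to 1). Its columns of differences, p-values and adjusted p-values, and the summary of events, hold the authors' own comparison and were not used. No column was left over: 0 columns held samples of another series.

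The main test was the quasi-likelihood test of edgeR 4.0.16 (R 4.3.3), after filterByExpr and TMM, with group alone in the model and Benjamini-Hochberg adjustment over all 21005 genes tested. SEs were computed as the size of the log2 fold change divided by the square root of F. CPM used TMM-scaled library sizes. Adjusted p-values of the limma 3.58.1 and DESeq2 1.42.0 fits served as alternatives, with limma run on log2 RPKM values, a pseudocount of 1 or 0.1 added, where the mean reached 1 RPKM. The code was tested on simulated data. Other alternatives were no TMM, no filter, a mean of at least 10 counts, the replicate number as a block, and leaving out each library. Ratios of 8 related pairs, set after values were seen, were compared by exact permutation. Coordinates are those of the deposited tables, and all 38 of 38 members overlapped their GENCODE entry on GRCh38, from which exon structures were taken.

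Replicates differed by more than sampling noise (chi-square per degree of freedom 6.80 to 23.8). Deviations from the group mean correlated across genes between libraries of the same number (0.333, 0.165 and 0.149 for replicates 1, 2 and 3). Between libraries of different numbers the correlations ran from -0.255 to 0.121. A pairing by number rests on these values alone, since no label says what the numbers stand for. The main fit and the permutation tests did not use it, and only the alternative with the replicate number as a block did. The text names MORC2, RBM39, RBM23, members with a splicing event, the 5 highest and 5 lowest called members, the highest and lowest members by RPKM, and called partner genes, and accounts for every other member. Members and lists were chosen with earlier results of these data known.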

Additional observations from a re-analysis of the deposited data

How the results depend on the processing

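MORC2 was called under all 13 alternatives (log2 fold change -0.74 to -0.55). RBM39 was called under 10 of 13, with the 6 fits that left out a library running from -0.33 to -0.21, and the 3 without a call (-0.26, -0.25 and -0.21) were such fits. The number of RBM genes called was 14 to 17 with a library left out (all genes, 29% to 39.2%) and 16 without TMM (38.7%). Both limma fits called 17 of the 33 RBM genes they tested (all genes, 42.3% and 42%). DESeq2 called 17 (all genes, 20.5%) and the fit without a filter 18 (23.6%), both over the 36613 genes with any count. Once a log2 change of 0.5 or more in size was asked for, 4 were called (all genes, 22.4%). With the replicate number as a block 21 RBM genes were called (all genes, 49%), RBM39 among them (-0.27, edgeR adjusted p 0.000224). The block added RBM34, RBM25, RBM43, RBM12 and RBM28 and lost no call among the RBM genes. Called partner genes numbered 10 to 18 with a library left out. The 10 were without shMORC2 replicate 3 (all genes, 29%) and the 18 without shMORC2 replicate 1 (39.2%). With the block 22 partner genes were called (all genes, 49%), and 7 of the 16 were called under every alternative run. 14 of the 16 called RBM genes kept their call under every alternative run (7 of 7 higher, 7 of 9 lower), the exceptions being RBM39 and RBM26, and none of the 16 changed sign. 6 genes that were not called did change sign. RBM17 went to -0.0054 without TMM and to -0.0045 and -0.0046 with limma, and RBM22 to -0.0052 without TMM, -8.49e-05 without a filter, and -0.0040 and -0.0043 with limma. With a library left out, RBM17 ran from -0.039 to 0.055, RBM19 from -0.056 to 0.013, RBM22 from -0.050 to 0.057, RBM42 from -0.050 to 0.075, RBM45 from -0.071 to 0.054 and RBM18 from -0.028 to 0.11. The cause was not tested. RBM25 was also called with DESeq2, without a filter and without shMORC2 replicate 1. With 3 libraries a group and 1 knockdown line, small changes in genes with few reads (RBM11, RBM24, RBM43 and RBM44) were not detectable. RBM43, with a log2 fold change of 0.83 in the main fit, was called in 3 of 11 alternatives.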
